A study of Homo sapiens with 6 samples.

Results

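The cytosolic ribosomal protein genes were taken from the deposited count table by symbol. A row was a member if its symbol began with RPL or RPS and a digit, or was RPLP0, RPLP1, RPLP2 or RPSA. Symbols beginning with RPS6K, which name kinases, and symbols ending in P and digits, which mark pseudogenes, were left out. The rule found 87 of 17081 rows. Of these, 77 were the core genes, 46 of the large and 31 of the small subunit, 8 were paralogues (close relatives such as RPL3L), and 2 carried the name of a ribosomal protein gene joined to that of its neighbour. mRNA was sequenced from 6 pieces of tumour grown from DMS114, a long-established human line of small cell lung cancer, in a sciatic nerve invasion model. The proximal group held 3 samples of the tumour region called proximal in the labels, and the distal group 3 samples of the region called distal. All 6 came from the same cell line, and the labels name no agent, genotype, host animal, age or day for either group. In such bulk tissue, fewer cells of a type and less RNA per cell cannot be told apart. Whether each piece came from its own animal is not stated, so a p-value here reflects only how much these 6 pieces vary, part of which may be technical.

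The cytosolic ribosome is built from ribosomal RNA and ribosomal proteins that, with few exceptions, are present in equal copy number. The large subunit joins amino acids and holds the tunnel through which the new chain leaves, and the small subunit reads the mRNA. The mRNAs of ribosomal proteins are abundant in growing cells and most begin with an unbroken stretch of pyrimidines (C or T in the DNA), the TOP motif, through which mTORC1 and the RNA-binding protein LARP1 set their translation and stability.

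The start sites show what most core genes share. RefSeq promoters (GRCh38.p14) were matched for 62 of the 77 core genes. In 42 of the 62 (67.7%) the annotated first base was C and the next 4 were C or T, against 4.04% of all 27305 promoters of the same length in the table. The share was 65.8% of 38 matched large subunit genes and 70.8% of 24 matched small subunit genes. The unbroken run around the first base was 6 to 25 bases long, with a median of 12. The windows below run from 15 bases before to 14 bases after the first base, which is the sixteenth letter, and capitals mark the unbroken C and T run through it. The first set shows such starts in both subunits and in genes described below.
RPL34, chr4:108620561-108620590, plus strand: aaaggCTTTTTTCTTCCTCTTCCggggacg
RPL41, chr12:56116618-56116647, plus strand: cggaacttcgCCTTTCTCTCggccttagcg
RPLP1, chr15:69452803-69452832, plus strand: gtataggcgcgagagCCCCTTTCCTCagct
RPL36A, chrX:101390996-101391025, plus strand: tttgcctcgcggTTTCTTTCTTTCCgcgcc
RPS14, chr5:150449725-150449754, minus strand: ccgccccctcccaCTCTCTCTTTCCggtgt
RPS18, chr6:33272060-33272089, plus strand: cgcgtcacttccgCTCTCTCTTCCacagga
RPS10, chr6:34426055-34426084, minus strand: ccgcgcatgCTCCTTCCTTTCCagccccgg
RPS21, chr20:62387088-62387117, plus strand: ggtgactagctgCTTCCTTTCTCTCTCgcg
The second set shows annotated starts that do not meet this definition, among them a core gene with only a short run and 2 paralogues.
RPL3, chr22:39319609-39319638, minus strand: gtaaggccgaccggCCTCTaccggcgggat
RPL4, chr15:66504841-66504870, minus strand: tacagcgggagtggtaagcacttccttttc
RPL26L1, chr5:172958714-172958743, plus strand: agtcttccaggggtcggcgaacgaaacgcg
RPL7L1, chr6:42879601-42879630, plus strand: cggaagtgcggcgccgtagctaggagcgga
In RPL4 a pyrimidine stretch lies a few bases after the annotated first base. The letters CCGGAAG, searched on both strands over 300 bases, were in 33.9% of the core promoters and 10.7% of all promoters, and TATAAA in 8.06% and 12.0%.

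The libraries held 16171106 to 26116191 counts, the fewest in distal 3, and TMM scaling factors ran from 0.990 to 1.01. YAP1, which DMS114 is known to express, had 167 to 187 CPM (counts scaled to library size with TMM). The neuroendocrine regulator INSM1 was at 0.837 to 1.46 CPM. Both belong to a list of 10 identity genes of this line and cancer, which summed to 349 to 385 CPM. Its other genes are not described here, and no subtype is read from YAP1 and INSM1 alone. Proximal 3 and distal 3 stood apart in skeletal muscle transcripts. The summed level of 25 muscle markers, none of which was at 0 in all libraries, was 149, 196 and 557 CPM proximally and 151, 180 and 3042 CPM distally. Summed Schwann cell markers were highest in proximal 3 (160.5 CPM, against 64.8 to 126 in the others). Summed fibroblast and pericyte markers were lowest in distal 3 (4734 CPM, against 6012 to 6853). Whether these fibroblast and pericyte transcripts came from host or tumour cells was not tested, so their sum is not read as fibroblast content. Summed endothelial markers were lower than summed leukocyte markers in every library. Leukocyte and erythroid markers were highest in proximal 3 and distal 3, each list at 2.14 to 5.55 CPM there and at most 1.52 CPM elsewhere. Both libraries also held the extremes of the ribosomal protein genes, so the main counts are given with and without them. Proximal 3 was the lowest and distal 3 the highest library for most core genes. Leaving out either or both therefore lowers the distal minus proximal difference of such genes by construction. It shows how far the difference rests on them and is no independent check. No other pair of libraries was left out.

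The share of counts taken by ribosomal protein genes differed between single libraries more than between the groups. That share was 5.27%, 4.92% and 4.71% proximally and 5.25%, 4.94% and 5.47% distally. Proximal 3 was the lowest and distal 3 the highest, and the groups overlapped. The means were 4.97% ± 0.282 in proximal and 5.22% ± 0.267 in distal tumour (SD, n = 3 each), a difference of 0.255 percentage points that was smaller than either SD. It was 0.126 without proximal 3, 0.130 without distal 3 and 0.0015 without both.

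The summed counts of large and small subunit genes kept a nearly fixed proportion. Counts in the 53 large subunit genes, paralogues included, divided by those in the 32 small subunit genes gave 1.54, 1.53 and 1.57 proximally and 1.55, 1.54 and 1.54 distally. The highest ratio was in proximal 3, the library with the lowest share. On the log2 scale the mean ratio was 0.63 ± 0.021 in proximal and 0.63 ± 0.0055 in distal tumour (SD, n = 3 each). The difference of -0.0021 was smaller than the SD of either group. It ranged from -0.010 without proximal 2 to 0.0099 without proximal 3, and was 0.012 without proximal 3 and distal 3, above the distal and below the proximal SD. Large subunit genes alone took 2.88% to 3.31% of the counts and small subunit genes 1.83% to 2.16%, both lowest in proximal 3 and highest in distal 3. Sums are weighted to the most abundant genes. The median log2 level of the large minus that of the small subunit genes varied more, from -0.33 in distal 3 to -0.20 in distal 1. Its means were -0.290 ± 0.019 in proximal and -0.253 ± 0.067 in distal tumour (SD, n = 3 each).

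**Figure D1:**
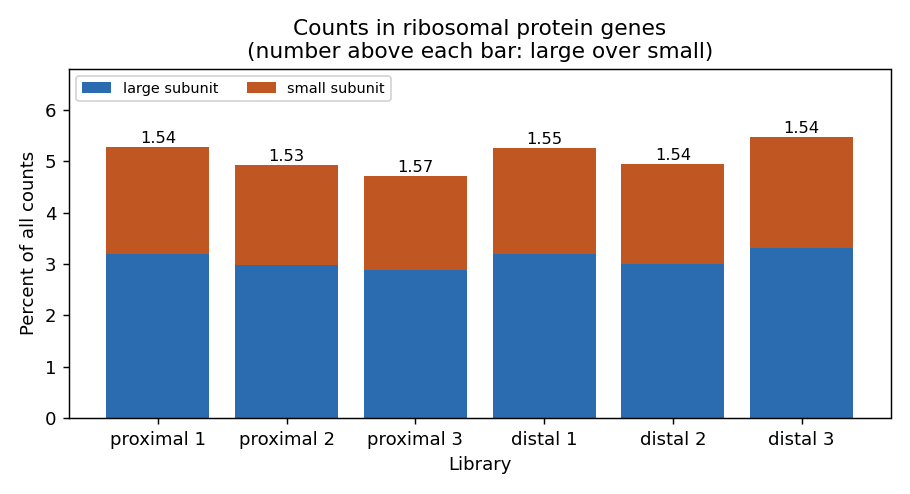
Percent of all counts (vertical axis) in large and small subunit genes, stacked, for each of the 6 libraries; the number above each bar is the large over the small subunit counts. The bars run from 4.71% in proximal 3 to 5.47% in distal 3, and the ratio lies between 1.53 and 1.57.

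The core genes shifted together from library to library. For each gene the mean log2 level over all 6 libraries was subtracted (log2 of CPM + 0.1). The median deviation of the 77 core genes was then 0.056, -0.031 and -0.13 proximally and 0.049, -0.047 and 0.13 distally. Over all 13382 tested genes it stayed between 0.00042 and 0.0037, a median that scaling keeps near 0. Mitochondrial ribosomal proteins and other genes of at most 200 residues, described below, had medians on the same side as the core except in distal 2 and distal 3. Of the 77 genes, 53 had their lowest level in proximal 3 and 50 their highest in distal 3. Proximal 1 and distal 1 were also above the gene's own mean for 58 and 61 genes, and proximal 2 and distal 2 for only 22 and 12. The medians of both subunits were negative in proximal 2, proximal 3 and distal 2 and positive in the other 3 libraries. In distal 3 they were 0.13 for the large and 0.11 for the small subunit, and in proximal 3 they were -0.11 and -0.13.

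**Figure D2:**
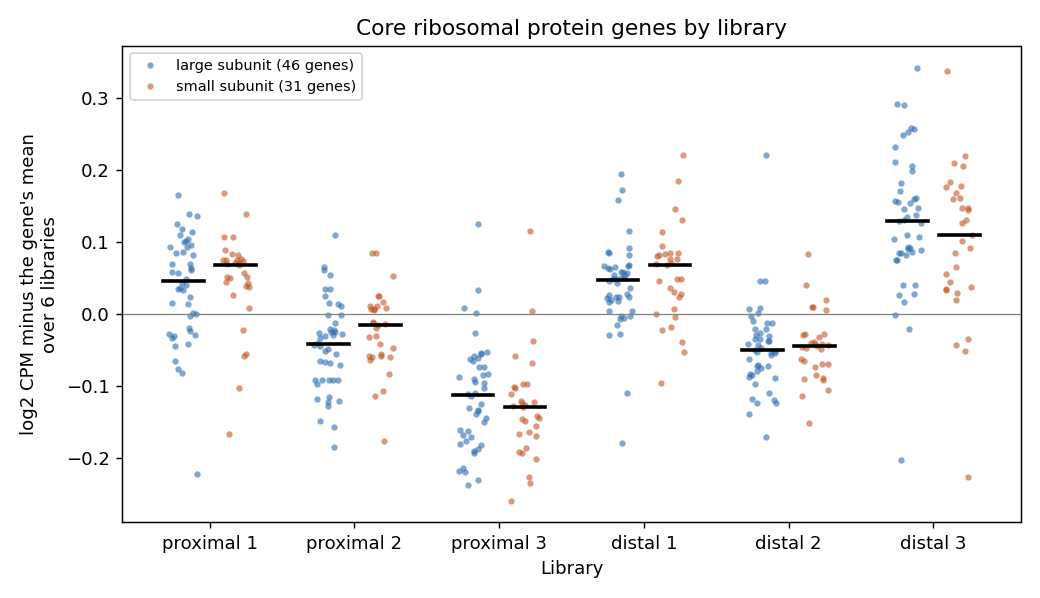
Each point is a core gene in a library, placed by its log2 CPM minus its own mean over the 6 libraries (vertical axis); black bars are medians for the large (46 genes) and small (31 genes) subunit. Both medians are lowest in proximal 3 and highest in distal 3.

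Single genes differed in how closely they followed this pattern. RPL7, a large subunit protein, had 3111, 2651 and 2705 CPM proximally and 3184, 2915 and 2453 CPM distally. Distal 3 was its lowest library and distal 1 its highest. RPL30, a large subunit protein at the face toward the small subunit, had 700.4, 674 and 605 CPM proximally and 680.1, 607 and 867 CPM distally. RPS21 had 169, 154 and 136 CPM proximally and 158, 151 and 203 CPM distally. RPL30 and RPS21 were lowest in proximal 3 and highest in distal 3, while distal 1 and distal 2 lay within the proximal range.

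Among genes with at least 10 CPM, the spread over all libraries was widest for RPL26L1 (SD of log2 CPM 0.24), RPL36A (0.21), RPS21 (0.19) and RPL30 (0.19). Among the narrowest were RPLP1 (0.048), RPL14 (0.051) and RPL36 (0.059). The median SD of the core genes was 0.11, the same as that of 2450 other genes averaging 100 CPM or more.

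Distal and proximal tumour did not differ past the threshold in any ribosomal protein gene. Of the 87 members, 83 passed the filter on low counts, all 77 core genes among them. With the quasi-likelihood test of edgeR, adjusted after Benjamini and Hochberg over 13382 genes, 0 of the 83 were called (0% of all genes), and the adjusted p was 0.9997 for every one. Before adjustment, 0 of 83 members had p under 0.05, against 1.33% of all genes. Evenly spread p-values would give a larger share, so p-values ran high across all genes. The lack of calls therefore does not by itself show equal levels. DESeq2 also called 0 members (0.00749% of all genes) and so did limma-voom (0% of all genes). All 83 members had a 95% interval inside 2-fold in either direction, and 82 had one inside 1.5-fold, RPL26L1 being the exception. The smallest and largest bounds were log2 -0.28 and 0.60.

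Most members had a higher value in distal tumour, also without proximal 3 or distal 3 but not without both. With all libraries, 78 of 83 members had a log2 fold change above 0 (51.6% of all genes), with a median of 0.072 (all genes 0.0045). For the large subunit this held for 43 of 46 core genes (median 0.081) and for the small subunit for 30 of 31 (median 0.070). Without proximal 3 it held for 61 of 83 (median 0.031) and without distal 3 for 64 (median 0.041). Without both it held for 39 and the median was -0.0032, below that of all genes in the same fit by 0.0012. All distal libraries lay above all proximal ones for 3 of 83 members (3.2% of all genes), namely RPS10, RPLP1 and RPL36AL, and below them for 0 (3.09% of all genes). RPS10, a small subunit protein near the mRNA entry and the least abundant tested member, had 8.59, 8.95 and 9.20 CPM proximally and 11.3, 9.39 and 10.8 CPM distally, a log2 fold change of 0.23 (SE 0.16).

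**Figure D3:**
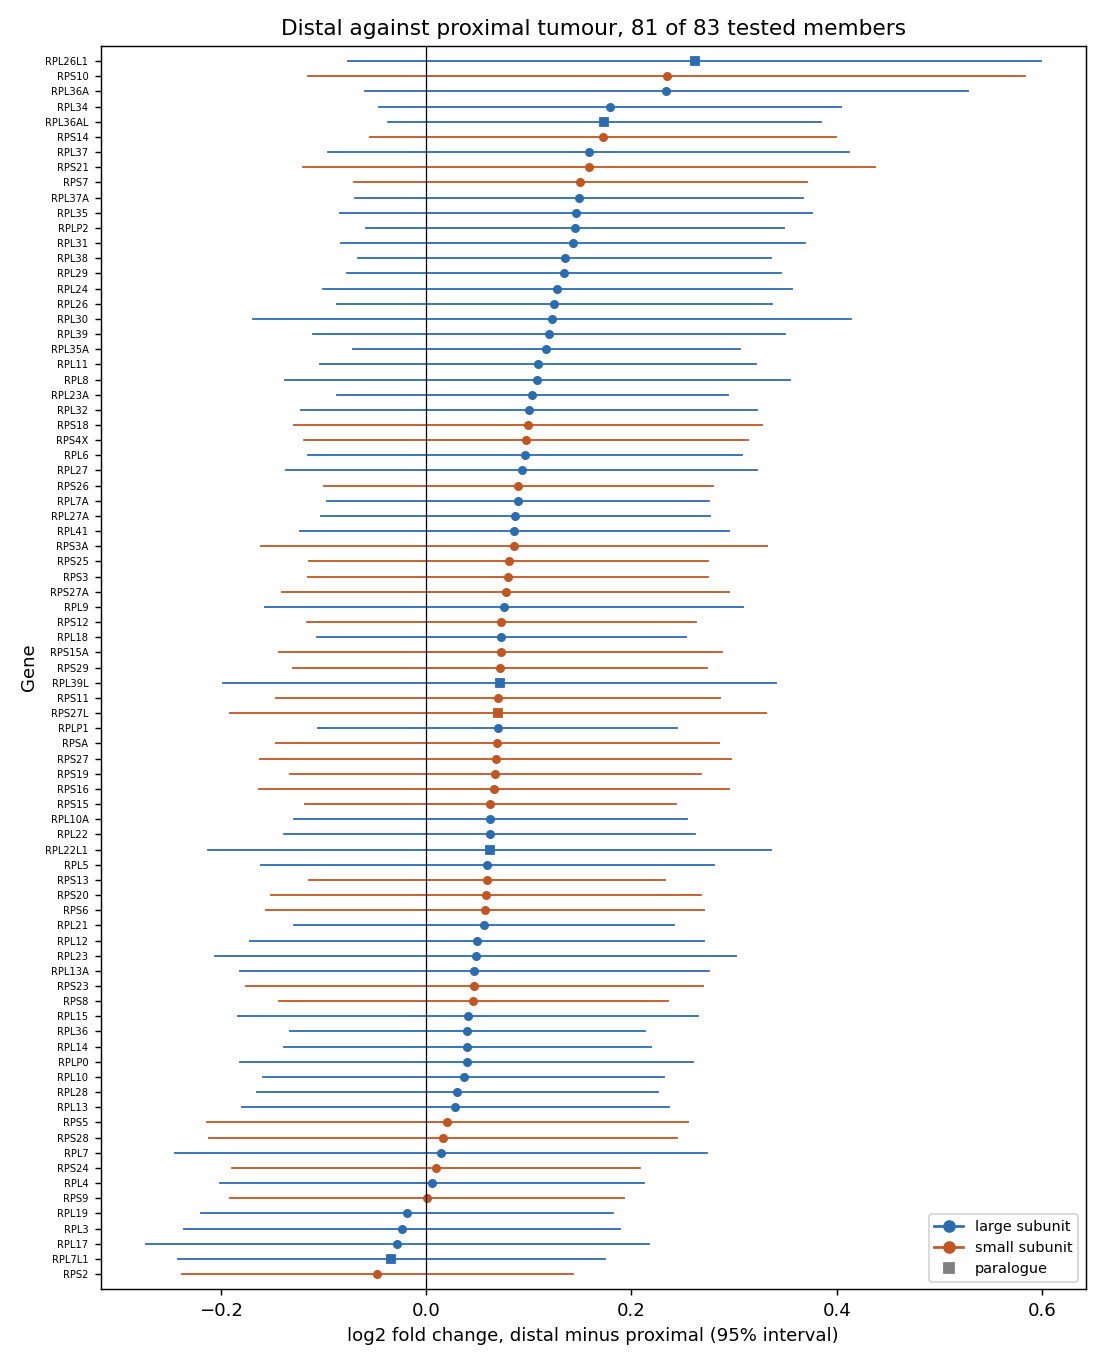
Log2 fold change, distal minus proximal (horizontal axis), with its 95% interval for 81 of the 83 tested members, in order of size; circles are core genes and squares paralogues, blue for the large and orange for the small subunit. Most points lie above 0, and every interval includes 0.

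The 4 members with the lowest p on the higher side were RPL36AL, RPL36A, RPL34 and RPL26L1. RPL36A (chromosome X, 101391011 to 101396155, GRCh38) had 36.8, 42.2 and 40.5 CPM proximally and 37.9, 50.1 and 52.5 CPM distally. Distal 1 lay within the proximal range, and distal 2 and distal 3 above it. The log2 fold change was 0.23 (SE 0.13), 0.36 without distal 1 and 0.15 without distal 3.

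RPL36AL (chromosome 14, 49618530 to 49620626), a second gene for nearly the same protein, had 54.6, 57.6 and 54.9 CPM proximally and 58.6, 61.6 and 68.5 CPM distally. Its groups did not overlap, and its log2 fold change was 0.17 (SE 0.095, unadjusted p 0.0960, adjusted p 0.9997 by edgeR), or 0.11 without distal 3. The 2 genes encode near-identical proteins. Whether reads were split between them was not tested, so each value is uncertain.

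RPL34 (chromosome 4, 108620576 to 108630484), whose start is printed above, had 198, 181 and 166 CPM proximally and 199, 187 and 231 CPM distally. RPL26L1 had 23.1, 21.5 and 17.3 CPM proximally and 24.4, 21.1 and 28.9 CPM distally. For both, distal 3 was the highest and proximal 3 the lowest. Their log2 fold changes of 0.18 (SE 0.10) and 0.26 (SE 0.15) were both 0.027 without those libraries.

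On the lower side RPS2, RPL7L1, RPL17 and RPL3 had the lowest p, and all 4 lay close to 0. RPS2 (chromosome 16, 1962058 to 1964826), at the mRNA entry of the small subunit, had 1615, 1592 and 1474 CPM proximally and 1567, 1482 and 1480.1 CPM distally. This gave a log2 fold change of -0.047 (SE 0.086, 95% interval -0.24 to 0.14), and the groups overlapped. RPL3, at the catalytic centre of the large subunit, had 1425, 1475 and 1241 CPM proximally and 1392, 1289.8 and 1392 CPM distally, a log2 fold change of -0.023 (SE 0.095). RPL17, near the exit of the tunnel, had 21.9, 23.4 and 23.07 CPM proximally and 20.9, 21.95 and 24.2 CPM distally, so that the highest and the lowest library were both distal.

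Levels between genes were compared per length, as CPM per kb of coding sequence (GENCODE 29), averaged over 6 libraries. Reads over untranslated parts also count, so the scale is raised for very short proteins. The large subunit core had a median of 1172 and the small subunit core a median of 1087. The highest values were 5682 for RPL41, a peptide of 25 residues, 3797 for RPL7 and 3083 for RPL37A in the large subunit. In the small subunit they were 4169 for RPS18, 3827 for RPS24 and 3504 for RPS27. The lowest were 40.7 for RPL17, 135 for RPL36A and 187 for RPL26 in the large subunit. In the small subunit, low values were 19.5 for RPS10 and 289 for RPS26.

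The 5 lowest core genes shared a feature of the annotation. In GENCODE 29, exons of another gene on the same strand cover over 50% of the coding bases of 7 core genes. Among them are RPL17 (100%, by RPL17-C18orf32), RPL36A (94.3%, by RPL36A-HNRNPH2), RPS10 (92.1%, by RPS10-NUDT3), RPL26 (71.0%), RPL22 (59.9%) and RPS15A (54.6%). The levels of the 7 ran from 19.5 to 529 CPM per coding kb, with a median of 135. The other 70 core genes ran from 289 to 5682, with a median of 1214. The 5 lowest of all 77 were among these 7, while RPL22 was the eleventh and RPS15A the thirteenth from below. Core genes also have pseudogene copies elsewhere in the genome, 61 named after RPL7 in GENCODE 29, with which reads could be shared. How the counting treated reads in shared exons is not given in the sources used here, and its part in these levels was not tested. Without the 7 genes the median log2 fold change of the core was 0.071, against 0.072 with them, and 67 of 70 were above 0.

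**Figure D4:**
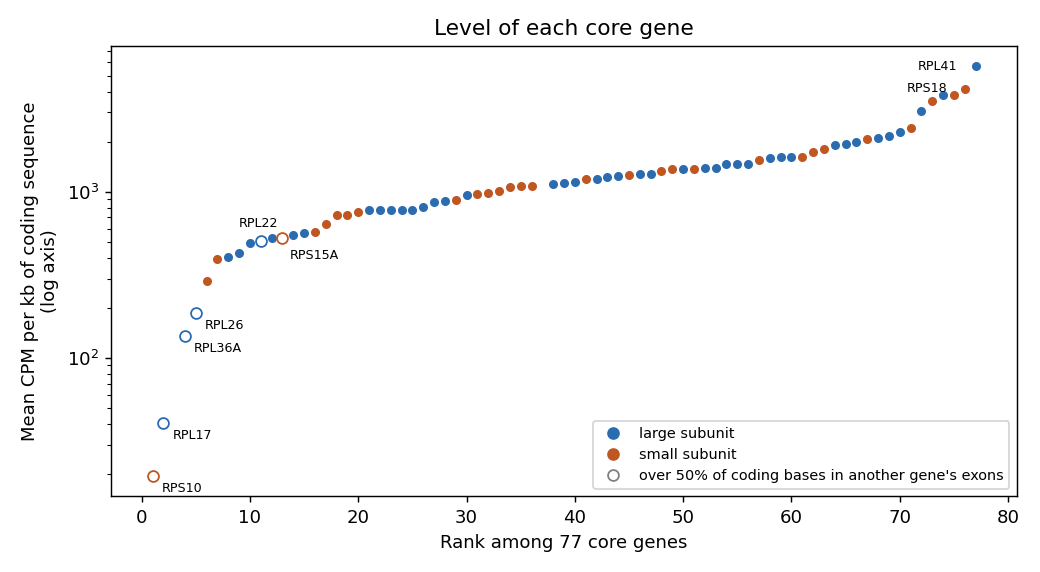
Mean CPM per kb of coding sequence (vertical log axis) of core genes in order of level; open circles mark genes with over 50% of their coding bases in exons of another gene. RPS10 at 19.5, RPL17 at 40.7, RPL36A at 135 and RPL26 at 187 are open circles below all filled ones, and 75 of the 77 genes are drawn.

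The stalk proteins recruit elongation factors to the large subunit. All 4 had log2 fold changes above 0 (0.039 to 0.14), and 2 of 4 without proximal 3, or without proximal 3 and distal 3. RPLP0, the base of the stalk, had 1957, 1854 and 1630.3 CPM proximally and 1922, 1736 and 1934 CPM distally, and the groups overlapped. RPLP1 had 667, 630.3 and 636 CPM proximally and 669, 681 and 679 CPM distally, so the highest proximal library lay just below the lowest distal one. RPL12, which sits beside RPLP0 at the base, had 778, 638 and 633 CPM proximally and 717, 697 and 707 CPM distally, with proximal 1 highest. RPLP2 had 146, 138 and 142 CPM proximally and 149, 145 and 177 CPM distally, high in distal 3 alone, with a log2 fold change of 0.14 that was 0.051 without that library.

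RPL5 and RPL11 bind the 5S rRNA and, when not built into ribosomes, the p53 inhibitor MDM2. RPL5 had 1227, 1043 and 1069.7 CPM proximally and 1153, 1080.1 and 1248 CPM distally. RPL11 had 830.1, 706 and 729 CPM proximally and 808, 768 and 866 CPM distally. In both genes proximal 1 lay among the distal values, and log2 fold changes were 0.060 (SE 0.099) and 0.11 (SE 0.095). Without distal 3 they were 0.0046 for RPL5 and 0.062 for RPL11, and without both proximal 3 and distal 3 they were -0.024 and 0.037.

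Of 9 proteins around the exit tunnel, 7 had log2 fold changes above 0 (4 without proximal 3 and distal 3), and RPL17 and RPL19 had -0.03 and -0.02. RPL31 had 891, 843 and 747 CPM proximally and 906, 839 and 995 CPM distally. RPL39, a small protein in the tunnel wall, had 208, 179 and 164 CPM proximally and 199, 184 and 217 CPM distally. RPL4, which also lines the tunnel, had 2898, 2663 and 2488 CPM proximally and 2805, 2629 and 2648 CPM distally. Among these 3, RPL31 and RPL39 were highest in distal 3, and RPL4 in proximal 1. RPL31 had a log2 fold change of 0.14, which was 0.077 without distal 3, 0.075 without proximal 3 and 0.0084 without both.

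In the small subunit, 5 of 6 proteins of the mRNA entry and decoding site and 7 of 7 of the mRNA exit and platform had log2 fold changes above 0. Without proximal 3 and distal 3 these were 2 of 6 and 4 of 7. RPS23, a decoding site protein, had 816, 782 and 691 CPM proximally and 799, 719 and 847 CPM distally. RPS14, on the platform, had 761, 679.6 and 644 CPM proximally and 778, 714 and 857 CPM distally, with a log2 fold change of 0.17 (SE 0.10), or 0.10 without distal 3 and 0.050 without proximal 3 and distal 3. RPS26, at the mRNA exit, had 103, 99.3 and 89.3 CPM proximally and 106, 102 and 103 CPM distally. Proximal 3 was the lowest library for all 3. All 9 members on the list of Diamond-Blackfan anaemia genes used here had log2 fold changes above 0 (0.0085 to 0.23), as had 78 of all 83 members. Without proximal 3 and distal 3 it was 6 of 9, and 39 of all 83 members. RPS19, the first of these to be linked to the disease, had 627, 578 and 563 CPM proximally and 602, 583 and 667 CPM distally.

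The paralogues were mostly minor partners of their core genes. RPL22L1 made up 13.2% to 17.8% of the counts of the RPL22 pair, RPL39L 12.2% to 16.8% of the RPL39 pair, and RPS27L, a p53 target, 5.84% to 7.37% of the RPS27 pair. RPL7L1, which acts in assembly of the large subunit, held 10.7% to 12.6% beside RPL7. RPL26L1 held 18.7% to 23.5% beside RPL26, and RPL36AL held 55.1% to 60.7% beside RPL36A. RPL26 and RPL36A are among the overlapped genes above, so these shares rest on low core values. RPL22L1 had 37.5, 28.98 and 38.4 CPM proximally and 35.01, 35.8 and 38.8 CPM distally, with proximal 2 alone set lower. RPS27L had 69.96, 58.3 and 53.4 CPM proximally and 59.2, 68.9 and 62.7 CPM distally, and the groups overlapped. RPL39L, known from testis and from some cancers, had 35.1, 34.5 and 30.9 CPM proximally and 40.0, 35.3 and 30.1 CPM distally. Unlike RPL39 it was lowest in distal 3. RPL7L1 had 392, 349.7 and 389 CPM proximally and 383, 391 and 332 CPM distally, also lowest in distal 3, as RPL7 was.

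The 4 members that did not pass the filter were RPL3L, RPL10L and both joined symbols. The lowest tested member, RPS10, had 8.59 to 11.3 CPM, and the highest untested level was 1.04 CPM. RPL3L (chromosome 16, 1943974 to 1954689), which takes the place of RPL3 in skeletal and heart muscle, had 2, 0 and 2 counts proximally and 1, 6 and 17 distally. Its exact 95% Poisson interval in distal 3 was 0.604 to 1.66 CPM, and the intervals in the other 5 libraries ended at or under 0.538 CPM. For the count of 0 in proximal 2, a limit of 3 counts corresponds to 0.138 CPM. RPL10L (chromosome 14, 46651010 to 46651781), known from testis, had 1, 1 and 9 counts proximally and 1, 1 and 15 distally. These intervals cover counting error only. RPL10L was thus highest in distal 3 and proximal 3, and RPL3L in distal 3 and distal 2. The muscle markers were highest in distal 3 (3042 CPM summed) and proximal 3 (557 CPM), and their part in these reads was not tested. RPL17-C18orf32 had 2, 4, 4, 2, 3 and 0 counts in the order of the libraries above, and RPL36A-HNRNPH2 had 2 counts in proximal 3 and 0 in the others.

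Proximal 3 and distal 3, which held the most muscle reads, were the lowest and the highest library of the core genes. Library depth was lowest in distal 3 (16171106 counts) and 22066179 in proximal 3, and highest in proximal 1, where the core median was 0.06. The part of muscle and other host cells and of depth in the shift was not tested.

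Ribosomal proteins FAU and RACK1, whose genes lie outside the symbol rule, had the same order of extremes. FAU, which encodes a small subunit protein fused to a ubiquitin-like domain, had 175, 161 and 156 CPM proximally and 174, 162 and 179 CPM distally. RACK1, a scaffold on the small subunit, had 832, 835 and 810.1 CPM proximally and 900.2, 866 and 1077 CPM distally. RACK1 did not overlap between groups and had a log2 fold change of 0.20 (SE 0.10, unadjusted p 0.0741, adjusted p 0.9997 by edgeR), or 0.10 without distal 3. Both were lowest in proximal 3 and highest in distal 3.

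Mitochondrial ribosomal proteins, made for the separate ribosome of that organelle, lay below their mean in distal 3. Of 82 tested mitochondrial ribosomal protein genes 0 were called, 59 had log2 fold changes above 0, and the median was 0.043. Their median deviation was 0.082, -0.036 and -0.10 proximally and 0.072, 0.063 and -0.084 distally. Like the core genes they were low in proximal 3, while in distal 3 the core lay at 0.13. The difference between the lists was not tested. MRPL32 had the lowest p, with 61.6 ± 3.96 CPM proximally and 69.2 ± 2.85 CPM distally (SD, n = 3 per group).

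Genes that make ribosomes or steer their mRNAs were not called either (0 of each list). Of 40 ribosome biogenesis factors 24 had log2 fold changes above 0 (median 0.031), with a median deviation of -0.060 in distal 3. NOP14, a small subunit assembly factor, had 70.0 ± 2.57 and 62.2 ± 6.42 CPM, and BRIX1, a large subunit assembly factor, 95.05 ± 7.88 and 104.9 ± 0.777 CPM. For RNA polymerase I, which transcribes the ribosomal RNA, it was 9 of 19 (median -0.0063), and its largest subunit POLR1A had 231 ± 24.6 and 211 ± 6.65 CPM. Of 18 genes of mTORC1 and LARP1 control 6 were above 0 (median -0.037), with EIF4EBP1, a target of mTORC1 that blocks cap binding, at 114 ± 7.64 and 126 ± 6.81 CPM (proximal and distal, SD, n = 3 each throughout).

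Other genes of translation were spread to both sides. Of 17 tested elongation factors and other genes known for TOP mRNAs, 11 had log2 fold changes above 0 (median 0.018). Their median deviation was -0.086 in proximal 3 and 0.088 in distal 3, on the same sides as the core. EEF2, the translocation factor, had 1457 ± 76.9 CPM proximally and 1318 ± 66.9 CPM distally (SD, n = 3 per group), a log2 fold change of -0.14 (SE 0.088). VIM, which encodes the intermediate filament vimentin, had 1956, 4106 and 1931 CPM proximally and 1944, 2269 and 1819 CPM distally. Its log2 fold change of -0.41 (SE 0.33) rested on proximal 2 and was 0.048 without that library. EEF1B2, an exchange factor for EEF1A1, had 191 ± 28.9 and 208 ± 13.2 CPM. Of 24 initiation factors 12 were above 0 (median 0.0031), with EIF5 at 208 ± 18.8 and 229 ± 11.6 CPM.

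Genes of the p53 response to unassembled ribosomal proteins had lower values for 7 of 9 (median log2 fold change -0.069), against 6482 of all 13382 genes. Of the 9, 0 were called. All distal libraries lay below all proximal ones for 3 of 9 (3.09% of all genes). MDM2, the p53 inhibitor bound by RPL5 and RPL11, had 198, 206 and 199 CPM proximally and 184, 190.3 and 174 CPM distally. Its groups did not overlap, and its log2 fold change was -0.14 (SE 0.074, unadjusted p 0.0912, adjusted p 0.9997 by edgeR). BBC3, which encodes the death effector PUMA, had 9.44, 11.3 and 11.04 CPM proximally and 9.20, 9.35 and 8.18 CPM distally, also without overlap.

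Start type, length and abundance were set beside the shift. The 42 core genes with a TOP start had a median deviation of 0.13 in distal 3 and -0.12 in proximal 3. The 20 matched core genes whose annotated start did not meet that definition had 0.098 and -0.14. Some of these have long C and T runs at or near the annotated first base, such as RPS7 (11 bases), RPL9 and RPL10A (10 bases each). The split therefore rests on the annotated base and does not separate genes with and without a TOP motif. The 523 other tested genes with a TOP start had 0.0085 and 0.013, and 259 of them had log2 fold changes above 0 (median -0.00088). Other genes of at most 200 residues (1545 tested) had -0.0040 in distal 3 and -0.064 in proximal 3, with 992 above 0 (64.2%, median 0.042). Other genes of at least 100 CPM (2450) had -0.046 and -0.0058, with 1009 above 0 (41.2%, median -0.019). Of these 3 classes, the short genes alone had a median below -0.05 in proximal 3, and each had a median under 0.01 in distal 3. The 252 other genes both short and of at least 100 CPM had -0.023 in distal 3 and -0.075 in proximal 3, with 165 above 0 (65.5%, median 0.031). In proximal 1, proximal 2 and distal 1 they had 0.058, -0.024 and 0.044, beside 0.056, -0.031 and 0.049 for the core. In distal 2 they had 0.043 and the core -0.047. These differences between classes were not tested.

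**Figure D5:**
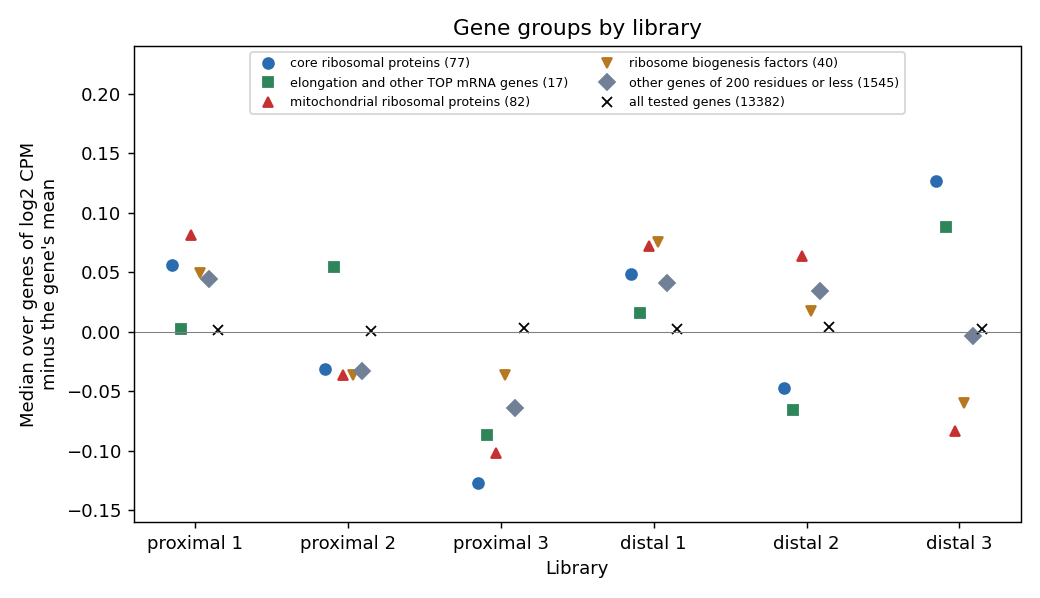
Median over genes of log2 CPM minus the gene's own mean (vertical axis) for 6 gene groups in each library, with the number of tested genes in brackets. In distal 3 the core ribosomal proteins lie at 0.13 and the mitochondrial ribosomal proteins at -0.084, while in proximal 3 both are below 0.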

How the data were processed

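The table that the authors deposited holds unnormalized read counts for each gene symbol in the 6 libraries. Per the labels' protocols, poly(A) RNA passing an integrity check was sequenced from TruSeq libraries. Tools named by the submitters' processing notes, without their roles, are STAR 2.7.3a, featureCounts 2.0.1, Trimmomatic 0.39, DESeq2 and bcl2fastq; the build named is GRCh38. Not given in the sources used here are the annotation, the strand setting, and how host reads and reads in shared exons or with several alignments were handled.

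Counts were analysed in R 4.3.3 with edgeR 4.0.16: expression filter by group, TMM scaling, robust quasi-likelihood test of distal against proximal, and Benjamini-Hochberg adjustment over all 13382 genes at 0.05. Standard errors were derived from each gene's log2 fold change and F statistic. The alternatives were RLE, upper-quartile, total-count and member-free TMM scaling, no filter, DESeq2 1.42.0, limma-voom (limma 3.58.1), a replicate block, and libraries left out. The fit was also run on simulated counts as a check of the code, and the outcome is not given here. Coding lengths and exon overlaps came from GENCODE 29 (GRCh38), since protein sequences were not used here, and gene positions and promoters from RefSeq.

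Members and lists were chosen with earlier results of these data known. Named were the 4 tested members with the lowest p in each direction, the extremes of level and spread, the role lists, paralogues and untested members, and among other lists genes of the 3 lowest p; which of these are described was chosen after their values were seen. The exon overlap, start types and deviations by list were added after values were seen. A few genes that these rules select are not reported here by name, though counts and medians include them. No pair of libraries agreed within sampling noise (chi-square per degree of freedom at least 5.63). Figures were drawn with matplotlib 3.10.9.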

Additional observations from a re-analysis of the deposited data

How the results depend on the processing

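No member was called under any of the 15 alternatives. All scalings, the missing filter, DESeq2 and limma-voom left 77 or 78 of 83 members above 0. Leaving out 1 library gave 61 to 78 members and a median log2 fold change of 0.031 to 0.11. Without both proximal 3 and distal 3, chosen because they held the extremes, these were 39 and -0.0032. The sign then changed for 41 members. Over all 15 alternatives, 34 members kept their sign and 49 changed it at least once. The log2 ratio of large to small subunit, -0.0021 between groups, was 0.037 when taken as a difference of medians over genes. The cause was not tested. Leaving out distal 3 alone changed the sign of 16 members and leaving out proximal 3 alone that of 17. Of the 8 members with the lowest p and the genes of other lists followed here, those that turned sign with 1 library left out were RPL7L1 (-0.086 without proximal 2 to 0.036 without distal 3), RPL17 (-0.088 without distal 3 to 0.015 without distal 1), RPL3 (-0.095 without proximal 3 to 0.026 without proximal 2, and 0.0090 without distal 2) and VIM (-0.59 without proximal 3 to 0.048 without proximal 2). Without both libraries RPL7L1 was at 0.058, FAU at -0.0024 and EEF1B2 at -0.0085. The sample titles give replicate numbers without saying whether these pair the samples. Same-numbered deviations correlated at 0.358, -0.112 and 0.182, and differently numbered ones across the groups at -0.317 to 0.128. So few values cannot settle pairing. With the replicate block 0 members were called, 78 were above 0 and the median was 0.071.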
